A study of Homo sapiens with 12 samples.

Results

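The genes described here carry fatty acids into the cell, activate them and oxidize them in mitochondria and peroxisomes. There were 38 such genes, chosen by name, of which 37 had a probe under their own name on the array and 33 could be tested, among 17239 genes tested in all. Human proximal tubular cells (HPTCs) of the HK-2 line, which is immortalized with papillomavirus genes, and of the RPTEC/TERT1 line, which carries telomerase, were grown in media with normal glucose. All cells were starved of serum and supplements for 24 h and then kept for a further 24 h without a ligand (control), with empagliflozin (Empa, 500 nM) or with IL-1β (10 ng/mL). Empa is an inhibitor of the sodium-glucose cotransporter SGLT2, and IL-1β a cytokine of inflammation. RNA of each line and treatment was hybridized in biological duplicate to one-color oligonucleotide arrays, 12 in all, on 4 slides. A slide held all 3 treatments of 1 line and replicate number, and is named by them here (HK-2 1, HK-2 2, RPTEC/TERT1 1 and RPTEC/TERT1 2). Each treated array was therefore compared with the control array of its own slide. No array held cells that received both ligands, and both cell types are immortalized lines in culture.

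Cells of the proximal tubule draw most of their energy from fatty acids. Transport proteins such as FATP2 (encoded by SLC27A2) bring long-chain fatty acids in, acyl-CoA synthetases (ACSL genes) couple them to coenzyme A, and the carnitine shuttle (CPT1A, SLC25A20, CPT2) passes them into mitochondria. There, acyl-CoA dehydrogenases, hydratases and thiolases shorten the chain step by step, while the electron transfer flavoproteins pass electrons on to the respiratory chain. Peroxisomes shorten very long and dicarboxylic chains with their own enzymes, and PGC-1α (PPARGC1A) is a transcriptional coactivator of many of these genes.

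The 2 labels of cell line did not order the slides by similarity. Over 15324 probes marked well above background by the scanner software on every array, r between the control arrays was 0.984 for HK-2 1 and RPTEC/TERT1 2 and 0.973 for HK-2 2 and RPTEC/TERT1 1. Within a label it was 0.880 (HK-2) and 0.875 (RPTEC/TERT1). One label field also gives HK-2 as the source of all 12 samples. Values are therefore given for each slide under its label, always in the order in which the slides are named above, and differences between the labelled lines are to be read with this limit. Of 16 proximal tubule markers, 9 (among them LRP2, AQP1, PAX8 and SLC5A2) passed that mark on all 12 arrays, while 3 (HNF4A and SLC22A6 among them) did on none. The summed level of that list lay between 16.8 and 147 times the array's 75th percentile on the control arrays, between 6.56 and 74.1 on the IL-1β arrays and between 13.6 and 129 on the Empa arrays. Of 7 distal nephron markers, UMOD alone was above background on all arrays, 1 was on some and 5 were on none. The marker above background on some arrays was at the floor on HK-2 2 and RPTEC/TERT1 1, and made up most of the high sums. The sum of the 7 ran from 0.0551 to 32.1 on the control, from 0.0304 to 0.768 on the IL-1β and from 0.0256 to 30.6 on the Empa arrays. Of 6 fibroblast markers none was above background on all arrays, and the sum ran from 0.161 to 9.99, from 0.160 to 12.05 and from 0.0655 to 6.42 in the same order. The high sums came from markers that were well above background on every array of HK-2 2 and RPTEC/TERT1 1. Their control levels there lay between 1.66 and 2.72 (log2). On the HK-2 1 and RPTEC/TERT1 2 control arrays the same markers were not well above background (-5.09 or below). Of the leukocyte (4), endothelial (4) and podocyte (3) markers, 5 (among them PTPRC, CD68, CDH5 and PODXL) were above background on all arrays. Of 4 adipocyte or hepatocyte markers, ALB, ADIPOQ and LEP were above background on none and the other 1 on some. The sum of these 4 lay between 0.0490 and 0.154 over all arrays. The leukocyte sum ran from 0.452 to 2.65 on the control, from 1.597 to 2.32 on the IL-1β and from 0.315 to 2.12 on the Empa arrays, and CD68 went from -1.73 to 0.83 with IL-1β on HK-2 1 and from -1.78 to 0.43 on RPTEC/TERT1 2 (log2), against 1.13 to 0.56 and 0.96 to 0.97 on the other slides. The endothelial sums lay between 0.151 and 0.408, and the podocyte sums between 0.460 and 1.68, over all arrays. The part of these markers in the results was not tested. In bulk RNA, fewer cells that use a gene and less RNA per cell cannot be told apart.

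IL-1β lowered 5 of the 33 tested genes and raised 2 (limma with the slide as a block, Benjamini-Hochberg adjusted p under 0.05). That is 21.2% of them, where 10.9% of all genes were called, 6.89% lower and 4.05% higher. The fatty acid transporter SLC27A2, the dehydrogenase ACADS, the peroxisomal enzyme EHHADH, the carnitine octanoyltransferase CROT and the coactivator PPARGC1A fell, and the acyl-CoA synthetases ACSL4 and ACSL5 rose. Without the slide as a block, when each labelled line and treatment was a group of 2 arrays, only SLC27A2 passed the threshold (1 of 33). Over all genes 4 of 17239 (0.0232%) then passed. The median difference over the 33 genes was -0.50 on the log2 scale, against -0.10 over all genes, and 27 of the 33 were lower in the mean, as 59.1% of all genes were. At an unadjusted p under 0.05 stood 16 of the 33, and 27.4% of all genes. By slide, the median of the 33 genes was -0.61, -0.27, -0.12 and -0.62, beside -0.18, -0.15, -0.05 and 0.01 for all genes, so the distance from all genes was widest on the HK-2 1 and RPTEC/TERT1 2 slides. Lower values on 4 of 4 slides were found for 16 of the 33 genes (48.5%, against 23.3% of all genes), and higher values on 4 of 4 slides for 4 (12.1%, against 14.9%).

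A filter on dim probes stood before these counts. The signal of 27 of the 33 genes was well above background on all 12 arrays. Of these, 2 fell and 2 rose (14.8%, against 10.2% of the 12606 genes with such probes), and 12 were lower on 4 of 4 slides (44.4%, against 24.5%). ACADL, which encodes a long-chain acyl-CoA dehydrogenase, passed the filter only through 2 Empa arrays, and FABP3, which encodes a fatty acid binding protein, had 5 arrays above background. CROT, 1 of the 5 genes called lower, passed the filter through its control and Empa arrays and not through its IL-1β arrays. The filter therefore favored a fall of CROT with IL-1β, and its place in the counts is to be read with this limit. CD36 and FABP1 (2 probes), both genes of fatty acid uptake and binding, and ACOX2, a peroxisomal oxidase gene, were above background on none of the 12 arrays. CRAT (carnitine acetyltransferase) was above background on all arrays but had an outlier spot. With that spot kept, its difference was -0.41 ± 0.15 (SE) with IL-1β (adjusted p = 0.119) and 0.29 ± 0.15 with Empa (adjusted p = 0.491). ACOT2 has no probe under its name, and the probe of its near-identical copy ACOT1 may read both.

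**Figure D1:**
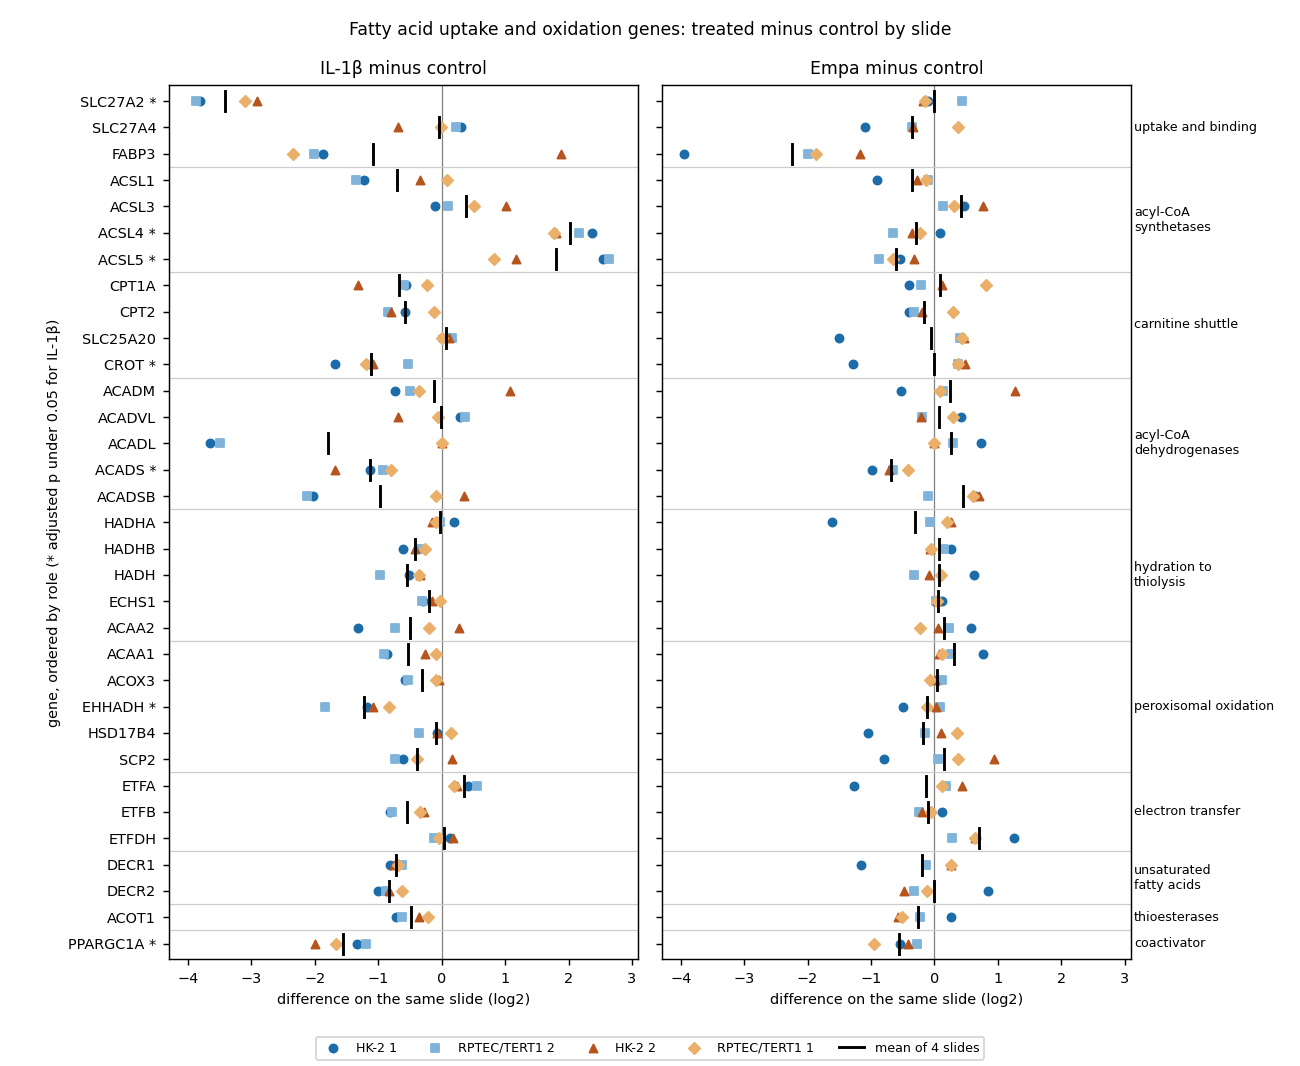
Difference from the control array of the same slide, on the log2 scale (x axis), for the 33 tested genes ordered by role (y axis), with IL-1β on the left and Empa on the right. Each symbol is 1 slide, the black bar is the mean of 4 slides, and stars mark the 7 genes past the threshold for IL-1β. SLC27A2 lies between -3.87 and -2.91 with IL-1β on all slides. ACADSB, with the probe used, was far below 0 only on the HK-2 1 and RPTEC/TERT1 2 slides. ACADL had no control or IL-1β array well above background, so its points on the left rest on dim signals and the floor.

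Among the genes of uptake, SLC27A2 fell. Its probe, shown because the largest mean difference in this scaling rests on it, has 60 bases and lies at chr15:50526183-50528163 on the plus strand of hg19, a stretch longer than the probe, so that it crosses at least 1 exon junction. The probes of ACADS (chr12:121176685-121176968, plus strand) and CPT1A (chr11:68527063-68527122, minus strand) are shown beside it, as the dehydrogenase that was lower on 4 of 4 slides with either ligand and as the gate of the carnitine shuttle. All 3 are printed 5′ to 3′.
SLC27A2: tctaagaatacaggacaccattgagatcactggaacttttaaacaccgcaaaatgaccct
ACADS: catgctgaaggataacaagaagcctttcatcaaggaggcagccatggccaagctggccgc
CPT1A: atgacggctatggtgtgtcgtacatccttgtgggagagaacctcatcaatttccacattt

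The level of SLC27A2, on the log2 scale relative to the array's 75th percentile, was -1.07, -1.43, -1.42 and -1.09 on the 4 control arrays. With IL-1β it was -4.87, -4.34, -4.52 and -4.96, and with Empa -1.17, -1.62, -1.57 and -0.65. The IL-1β arrays lay below all control and Empa arrays without overlap, and the control and Empa ranges overlapped. The mean difference with IL-1β was -3.42 ± 0.25 (SE, 4 slides), or 0.0932-fold of control (adjusted p = 0.000396). The size of this fall depended on how background was treated. With normexp and quantile normalization the difference was -1.50 (0.353-fold, adjusted p = 0.000591), smaller in size than those of ACSL4 (1.85) and ACSL5 (1.52), and in the authors' table it was -1.33 (0.397-fold, adjusted p = 0.00763), where ACSL4 had 1.71. The signal with IL-1β was well above background on 2 of the 4 arrays. In the scaling used here, the fall was 7.51-fold and 8.58-fold on HK-2 2 and RPTEC/TERT1 1, where both arrays were well above background. On HK-2 1 and RPTEC/TERT1 2 it was 14.0-fold and 14.7-fold with the dim IL-1β signal taken at its own value. These last sizes are uncertain and are not bounds. SLC27A2 was the gene called without the block as well (adjusted p = 0.0355). With Empa the mean difference was -0.00 ± 0.25 (adjusted p = 1.00).

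The other uptake genes were not called. SLC27A4, a transporter with acyl-CoA synthetase activity of its own, differed by -0.04 ± 0.30 with IL-1β, with both signs among the slides. FABP3 was bright only on the HK-2 1 and RPTEC/TERT1 2 slides, where its control levels were -0.65 and -0.80 and its IL-1β levels -2.52 and -2.82. On the other slides it was not well above background on any array. Its mean difference of -1.09 ± 0.70 with IL-1β did not pass the test (adjusted p = 0.348).

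Of the 4 acyl-CoA synthetases, 2 rose with IL-1β and none fell. Over all genes 4.05% rose and 6.89% fell, so no fall is the likely count in a group of this size. ACSL4, which prefers arachidonic acid, had control levels of 0.09, 0.13, 0.75 and 0.00 and IL-1β levels of 2.47, 1.94, 2.52 and 2.17. The IL-1β arrays lay above every control array, and the mean difference was 2.03 ± 0.18, or 4.08-fold of control (adjusted p = 0.000841). ACSL5, which is found on the outer mitochondrial membrane and the endoplasmic reticulum, had control levels of -1.24, -1.76, -1.33 and -1.11, and 1.31, -0.58, -0.50 and 1.53 with IL-1β. All 4 IL-1β arrays were above all control arrays, by about 2.6 on HK-2 1 and RPTEC/TERT1 2 (2.55 and 2.64) and by less on the other slides (1.18 and 0.83). The mean difference of ACSL5 was 1.80 ± 0.36, or 3.48-fold of control (adjusted p = 0.0177), and leaving out any 1 of 5 arrays (the control and IL-1β arrays of HK-2 1 and RPTEC/TERT1 2, and the control array of HK-2 2) moved the adjusted p to between 0.0521 and 0.0728.

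The remaining synthetases were not called. ACSL1, the synthetase most tied to fat storage and oxidation in liver, heart and fat tissue, differed by -1.23, -0.35, 0.08 and -1.36 with IL-1β. The large negative values were those of HK-2 1 and RPTEC/TERT1 2, and the mean of -0.71 ± 0.27 did not pass (adjusted p = 0.132). ACSL3, a synthetase of lipid droplets, differed by 0.38 ± 0.20 (adjusted p = 0.261).

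**Figure D2:**
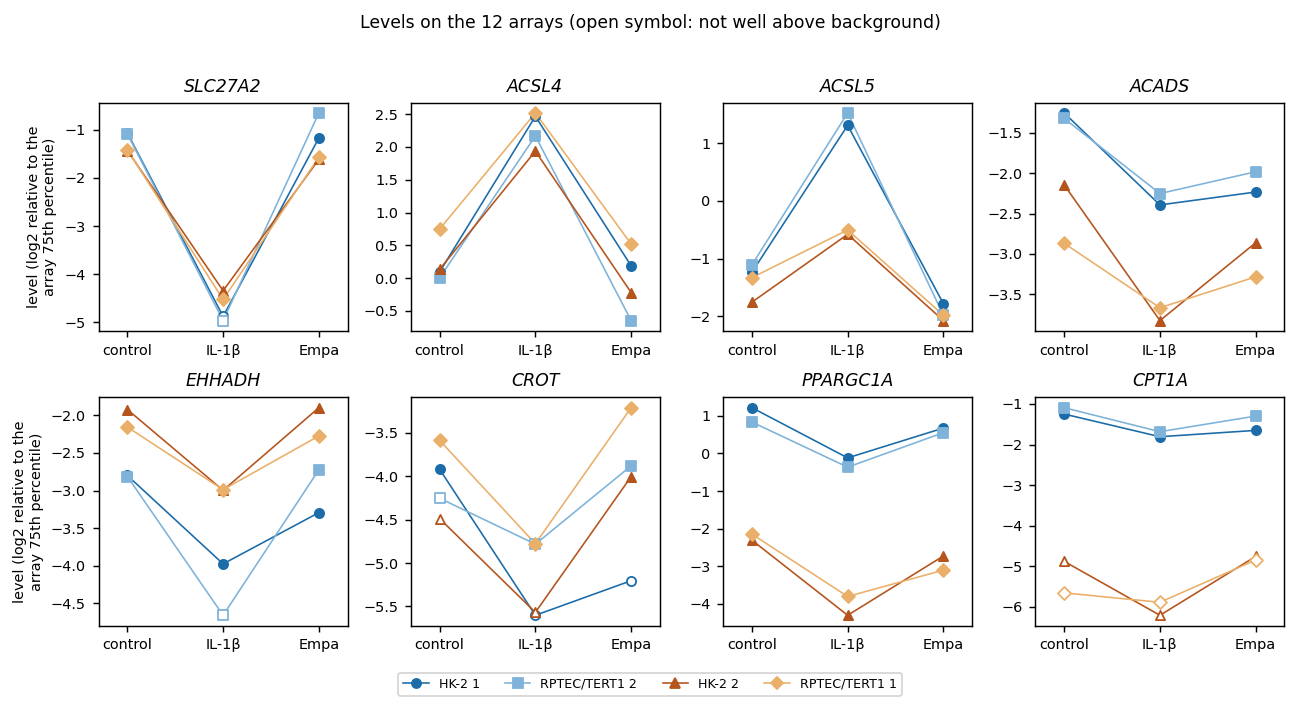
Level on each of the 12 arrays, on the log2 scale relative to the array's 75th percentile (y axis), by treatment (x axis), for the 7 genes called for IL-1β and for CPT1A. Lines join the arrays of a slide, and open symbols were not well above background. SLC27A2 falls from between -1.43 and -1.07 to between -4.96 and -4.34 with IL-1β, while ACSL4 rises to between 1.94 and 2.52.

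In the carnitine shuttle, CROT fell and CPT1A, CPT2 and SLC25A20 were not called. CROT, which exports shortened chains from peroxisomes as carnitine esters, had control levels of -3.92, -4.49, -3.59 and -4.25 and IL-1β levels of -5.60, -5.57, -4.78 and -4.78. Every IL-1β array was below every control array, but only 6 of the 12 arrays were well above background, and the difference of -1.12 ± 0.30 only just passed (adjusted p = 0.0451). A second probe of CROT gave a mean of -0.12, and the call was lost in 23 of 28 alternative settings, with normexp and quantile normalization (-0.22) and in the authors' table (-0.17) among them. The measured fold was 2.28 on RPTEC/TERT1 1. On HK-2 1 it was 3.21 with an IL-1β signal that was not well above background, so that its size is uncertain. CPT1A, the transferase that sets the entry of fatty acids into mitochondria, had control levels of -1.25, -4.88, -5.65 and -1.09 and IL-1β levels of -1.81, -6.20, -5.88 and -1.68. It was lower on 4 of 4 slides, by -0.56 and -0.59 on the slides where it was well above background, and the mean of -0.68 ± 0.25 did not pass (adjusted p = 0.123). CPT2, the inner membrane transferase, differed by -0.58 ± 0.17 (adjusted p = 0.0622), with the same sign on 4 of 4 slides. SLC25A20, the carnitine-acylcarnitine carrier between them, differed by 0.08 ± 0.34 (adjusted p = 0.913), with values of 0.17 or less that were above 0 on 4 of 4 slides.

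Among the 5 acyl-CoA dehydrogenases, ACADS fell (all genes lower: 6.89%). ACADS, the short-chain enzyme, had control levels of -1.26, -2.15, -2.87 and -1.32 and IL-1β levels of -2.39, -3.82, -3.66 and -2.25. The ranges overlapped because the slides differed in level, yet on each slide the IL-1β array was lower, by -1.14, -1.68, -0.80 and -0.93. The mean difference was -1.13 ± 0.18, or 0.455-fold of control (adjusted p = 0.00775). It was 0.679-fold with normexp and quantile normalization and 0.690-fold in the authors' table, and passed the test in both. ACADM, the medium-chain enzyme, and ACADVL, the very long-chain enzyme, differed by -0.13 ± 0.30 and -0.02 ± 0.22. ACADSB, the enzyme of short branched chains, differed by -2.03, 0.35, -0.08 and -2.12, and its mean of -0.97 ± 0.43 did not pass (adjusted p = 0.186). A second probe of ACADSB gave -0.46, 1.53, -0.13 and -0.59 (mean 0.09), so the probes disagreed in size and in the sign of the mean.

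Next come the enzymes of hydration, dehydrogenation and thiolysis in mitochondria. None of HADHA, HADHB, HADH, ECHS1 and ACAA2 was called, and all 5 means were below 0, from -0.55 to -0.02. Of all genes 59.1% were lower in the mean, with a median of -0.10, and HADHA lay above that median. HADH, the short-chain 3-hydroxyacyl-CoA dehydrogenase, differed by -0.52, -0.35, -0.35 and -0.97 (mean -0.55 ± 0.19, adjusted p = 0.106). HADHB, the thiolase subunit of the trifunctional protein, differed by -0.60, -0.43, -0.26 and -0.36 (mean -0.41 ± 0.15, adjusted p = 0.115). HADHA, the other subunit of that protein, differed by -0.02 ± 0.35. The reductases of unsaturated chains were not called either. Their 4 values with IL-1β were close together, but the SE also takes in the spread of the Empa arrays. DECR2, the peroxisomal reductase, differed by -1.01, -0.83, -0.62 and -0.88 (mean -0.84 ± 0.25, adjusted p = 0.0698), and DECR1, the mitochondrial one, by -0.81, -0.76, -0.68 and -0.62 (mean -0.72 ± 0.25, adjusted p = 0.106). A second, dimmer probe of DECR2 was also lower on 4 of 4 slides (mean -0.49).

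Of the 5 tested peroxisomal genes, EHHADH fell (all genes lower: 6.89%). EHHADH, the bifunctional enzyme of hydration and dehydrogenation, had control levels of -2.80, -1.92, -2.16 and -2.81 and IL-1β levels of -3.98, -3.00, -2.99 and -4.66. No IL-1β array reached the lowest control array. The mean difference was -1.23 ± 0.22, or 0.426-fold of control (adjusted p = 0.0115). The IL-1β array of RPTEC/TERT1 2 was not well above background, so that the fall of 3.60-fold there is uncertain in size. Leaving out the control array of HK-2 1 or of RPTEC/TERT1 2 moved the adjusted p of EHHADH to 0.0514 and 0.0504. The size was 0.730-fold with normexp and quantile normalization and 0.732-fold in the authors' table, and both passed the test. HSD17B4, the other bifunctional enzyme, ACOX3, ACAA1 and SCP2 were not called, with means from -0.53 to -0.09. ACAA1, the peroxisomal thiolase, differed by -0.87, -0.27, -0.08 and -0.91.

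Of the electron transfer genes, ETFB (the beta subunit of the flavoprotein) differed by -0.81, -0.28, -0.34 and -0.78 (mean -0.55 ± 0.17, adjusted p = 0.0710). ETFA, the alpha subunit, was higher on 4 of 4 slides, with a mean of 0.35 ± 0.30 (adjusted p = 0.487), and ETFDH differed by 0.04 ± 0.18. The thioesterase probe of ACOT1 gave -0.48 ± 0.22 (adjusted p = 0.190).

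PPARGC1A fell on each slide, although its level differed widely between slides. Its control levels were 1.22, -2.31, -2.15 and 0.84, and its IL-1β levels -0.12, -4.31, -3.81 and -0.36. The fall was between 1.20 and 2.00 on the log2 scale, with a mean of -1.55 ± 0.19, or 0.342-fold of control (adjusted p = 0.00268). It was 0.538-fold with normexp and quantile normalization and 0.523-fold in the authors' table, and passed the test in both. The test without the block gave an adjusted p of 1.00 for the same mean difference.

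The sequences upstream of 3 called genes with a single start in the table of promoters (RefSeq, GRCh38.p14) are shown because their RNA moved in both directions, SLC27A2 and ACADS down and ACSL4 up. Each line has the 250 bases before the start, 5′ to 3′ in the direction of the gene, with GC boxes (GGGCGG on either strand) in capitals. The SLC27A2 stretch lies at chr15:50181946-50182195 on the plus strand, that of ACADS at chr12:120725576-120725825 on the plus strand, and that of ACSL4 at chrX:109733258-109733507 on the minus strand.
SLC27A2: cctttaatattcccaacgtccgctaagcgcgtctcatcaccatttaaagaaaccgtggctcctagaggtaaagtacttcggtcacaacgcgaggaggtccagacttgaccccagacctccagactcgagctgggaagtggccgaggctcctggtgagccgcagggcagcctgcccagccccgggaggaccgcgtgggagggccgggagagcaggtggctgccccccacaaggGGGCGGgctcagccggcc
ACADS: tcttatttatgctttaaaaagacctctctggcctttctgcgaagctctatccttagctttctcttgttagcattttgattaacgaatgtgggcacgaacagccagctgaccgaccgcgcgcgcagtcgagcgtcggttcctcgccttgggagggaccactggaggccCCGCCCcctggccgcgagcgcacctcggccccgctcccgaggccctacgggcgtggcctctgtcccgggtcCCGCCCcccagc
ACSL4: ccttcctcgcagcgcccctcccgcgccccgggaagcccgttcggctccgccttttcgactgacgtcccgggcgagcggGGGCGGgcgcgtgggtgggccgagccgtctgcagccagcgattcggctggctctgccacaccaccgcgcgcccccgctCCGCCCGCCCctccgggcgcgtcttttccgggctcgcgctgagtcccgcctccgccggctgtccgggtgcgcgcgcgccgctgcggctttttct

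The GC box of SLC27A2 ended 13 bases before the start, ACADS had 2, and ACSL4 had 3, of which 2 overlap in the longer run of capitals. GC boxes stood in 42.6% of all 35116 windows of this length and in 24 of the 47 windows (51.1%) of the 30 genes described here that the table holds. The nuclear receptor half-site AGGTCA was in 2 of these 47 windows (4.26%, against 12.1% of all). Its exact direct repeat with 1 base between, a form that PPARs bind, was in 0 of them, against 0.0171% of all. At that share 0 of 47 was the likely count for any set of windows, so it does not show that PPAR sites are absent. The κB consensus was in 4 of the 47 (8.51%, against 9.96%), those of CPT1A, ECHS1, FABP1 and SLC27A4. CCAAT was in 7 (14.9%, against 32.0%) and TATAAA in 4 (8.51%, against 10.7%). All letters were searched on both strands, and these matches are descriptions of sequence only.

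Empa changed none of the 33 genes at the threshold, in this fit or in any alternative tried, where 1 of all 17239 genes (0.0058%) was called, DHRS2, which is none of the 33. At an unadjusted p under 0.05, 4 of the 33 (FABP3, ACADS, ETFDH and PPARGC1A) and 11.3% of all genes stood. The median difference over the 33 genes was -0.01, against -0.02 over all genes, and 19 of the 33 were lower in the mean, as 52.2% of all genes were. The comparisons with Empa and with IL-1β used the same control arrays, so their values are set side by side and were not correlated.

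ACADS had Empa levels of -2.23, -2.86, -3.28 and -1.98, which was lower than control on 4 of 4 slides (-0.98, -0.71, -0.41 and -0.66). The mean was -0.69 ± 0.18 (adjusted p = 0.312), beside -1.13 with IL-1β. PPARGC1A differed by -0.54, -0.42, -0.96 and -0.28 with Empa (mean -0.55 ± 0.19, adjusted p = 0.372), beside -1.55 with IL-1β. ACSL5 differed by -0.55, -0.32, -0.65 and -0.88 (mean -0.60 ± 0.36, adjusted p = 0.534), where it had risen by 1.80 with IL-1β. ACSL1 was also lower on 4 of 4 slides, with a mean of -0.35 ± 0.27 (adjusted p = 0.610). In all, 5 of the 33 genes were lower and 4 higher than control on 4 of 4 slides with Empa, where 13.2% and 12.4% of all genes were.

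ETFDH, the oxidoreductase that passes electrons from the flavoprotein to ubiquinone, had Empa levels of 2.06, 0.20, 0.15 and 1.35 beside control levels of 0.81, -0.44, -0.49 and 1.07. The difference was above 0 on 4 of 4 slides, with a mean of 0.70 ± 0.18 (adjusted p = 0.289). ACSL3 had a mean of 0.42 ± 0.20 (adjusted p = 0.459), also above 0 on 4 of 4 slides. FABP3 was below control on 4 of 4 slides (-3.95, -1.18, -1.86 and -1.99), but of these only RPTEC/TERT1 2 had both arrays well above background.

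The Empa array of HK-2 1 stood apart from the other Empa arrays. There, 18.8% of all genes differed from control by over 1 on the log2 scale, against 6.71% to 7.60% on the other slides, and 9 of the 33 genes did so, against 1 or 2 on the other slides. HADHA differed by -1.62 on that slide and by 0.27, 0.19 and -0.06 on the others. SLC25A20 differed by -1.50 there and by 0.46, 0.44 and 0.40 elsewhere. DECR1, ETFA and HSD17B4 had -1.16, -1.27 and -1.04 there, and between -0.14 and 0.43 elsewhere. Without this array 0 of the 33 genes were called for Empa, and 12 were called for IL-1β (2 higher and 10 lower), the 7 named above and CPT2, DECR1, DECR2, ETFB and HADH. Calls over all genes rose as well without this array, to 2803 (16.3%).

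The level without a ligand differed between slides by over 2 on the log2 scale (the range over the 4 control arrays) for 9 of the 33 genes, against 22.4% of all genes. The 6 widest ranges were those of FABP3 (6.77), CPT1A (4.56), ACSL1 (4.03), ACADL (3.65), PPARGC1A (3.53) and ACADSB (3.23). ACSL1 stood at 3.36, -0.67, -0.52 and 2.72, and ACADSB at 1.64, -1.02, -1.08 and 2.14. In all 6, the HK-2 1 and RPTEC/TERT1 2 arrays were the high ones. FABP3 had -7.42 and -6.05 and CPT1A -4.88 and -5.65 on the remaining control arrays, all not well above background, so that their ranges depend on the treatment of dim signals. ACADL was not well above background on any control array. At the other end of the order, ECHS1 and SLC27A2 had a range of 0.36 each and HADHA of 0.39.

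**Figure D3:**
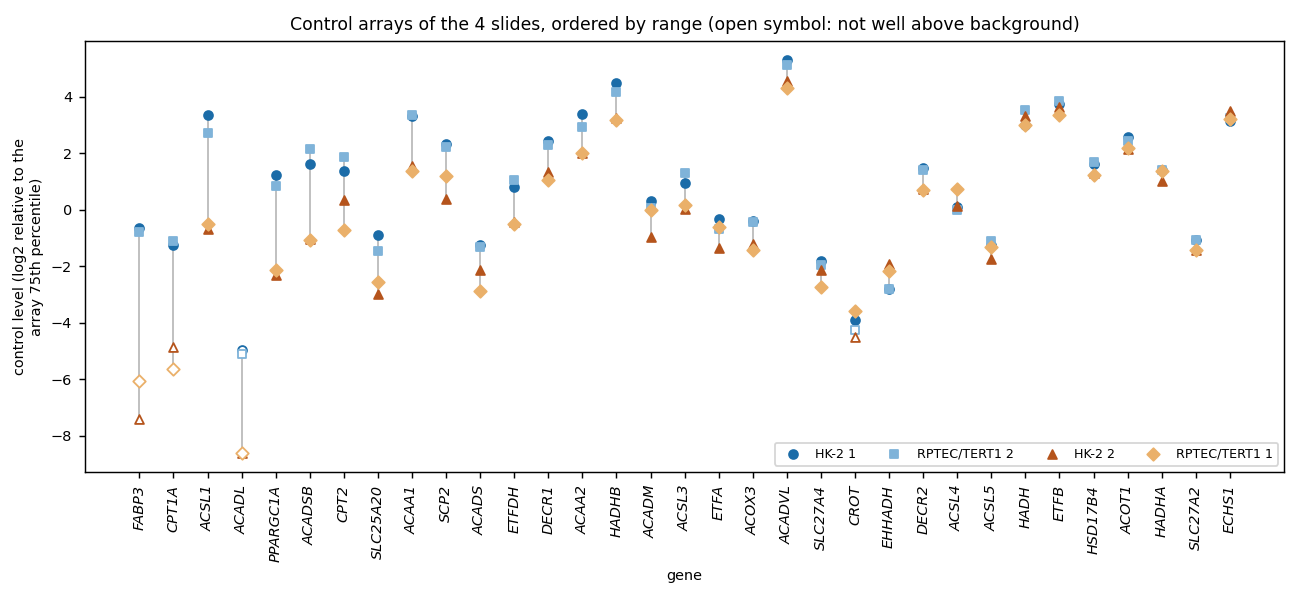
Level on the 4 control arrays, on the log2 scale relative to the array's 75th percentile (y axis), for the 33 tested genes ordered by their range (x axis). Each symbol is the control array of 1 slide, grey lines join the lowest and the highest, and open symbols were not well above background. Levels of different genes come from different probes and are not comparable. For ACSL1 the HK-2 1 and RPTEC/TERT1 2 symbols stand at 3.36 and 2.72, and the other pair at -0.67 and -0.52.

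No difference between the labelled lines passed the test. For the control level, for the IL-1β effect and for the Empa effect, 0 of the 33 genes were called by limma (0% of all genes), and 0 of the 33 had an unadjusted p under 0.05, against 1.10%, 1.65% and 0.992% of all genes. With replicates of a label on unlike slides, as shown by the control arrays, a p above the threshold does not show that the lines were alike.

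Other genes of lipid metabolism gave a wider view. The list held 124 genes outside the 38, of which 103 were tested, and with IL-1β 9 fell and 3 rose. These were 11.7% of the tested genes of the list, close to the 10.9% of all genes. Their median difference was -0.19, beside -0.10 for all genes. Of the genes called, the largest difference was that of SLC22A4, a transporter of ergothioneine and carnitine, with control levels of -4.55, -2.08, -1.98 and -5.95 and IL-1β levels of 0.09, 1.57, 1.03 and 0.15. It was higher on HK-2 1, HK-2 2 and RPTEC/TERT1 1, by 4.64, 3.65 and 3.00. On RPTEC/TERT1 2 the control signal was not well above background. With that signal set at the lowest one well above background on its array, the difference was 5.77. The fit, which took the dim signal at its value, gave a mean of 4.35 ± 0.47 (adjusted p = 0.00172), and the mean was 2.73 with normexp and quantile normalization and 2.43 in the authors' table. Of the 14 tested genes of triglyceride storage and release, G0S2 and HILPDA, both inhibitors of the lipase ATGL, rose by 2.40 ± 0.34 (adjusted p = 0.00435) and 1.99 ± 0.29 (adjusted p = 0.00485), and none fell. Over all genes 4.05% rose and 6.89% fell.

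The oxidation genes outside the 38 included 4 that fell, out of 20 tested (all genes lower: 6.89%). Among them were AMACR, the racemase of branched chains (-1.93 ± 0.40, adjusted p = 0.0192), and PHYH and ECHDC3 (-0.94 and -0.77). AMACR differed by -0.92, -3.09, -2.79 and -0.94, with the larger values on HK-2 2 and RPTEC/TERT1 1. The other carnitine genes included CPT1C, the transferase mostly known from neurons (-2.30 ± 0.38, adjusted p = 0.00871), with 5 of 12 arrays above background. CPT1C passed the filter through control and Empa arrays and not through IL-1β arrays. Its call was lost in 8 of 27 alternative settings, and the difference was -0.41 with normexp and quantile normalization and -0.26 in the authors' table. Among uptake and activation genes, ACSM3 (-1.96) and SLC27A3 (-1.06) fell, as did BDH2 (-1.59) among the ketone body genes. BDH2, ACSM3 and AMACR lost the call in 20 of 28, 14 of 29 and 11 of 29 alternative settings.

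Of the 18 tested regulators 1 fell (5.56%, against 6.89% of all genes). This was MLXIPL, which encodes the glucose-sensing factor ChREBP, with control levels of -2.97, -1.79, -2.17 and -3.51 and IL-1β levels of -5.48, -4.28, -4.45 and -6.48. Its mean difference was -2.56 ± 0.24 (adjusted p = 0.000972), and its IL-1β signal was well above background on 1 of 4 arrays. The gene therefore passed the filter only through its control and Empa arrays. With normexp and quantile normalization the difference of MLXIPL was -0.75, and in the authors' table -0.72. None of the 15 genes of fatty acid synthesis and desaturation and none of the 6 tested PPAR targets outside oxidation passed for IL-1β. Over all genes 10.9% did, so few calls would be found in groups of this size in any case. None of the 103 genes passed for Empa (11 at an unadjusted p under 0.05, where 11.3% of all genes stood).

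**Figure D4:**
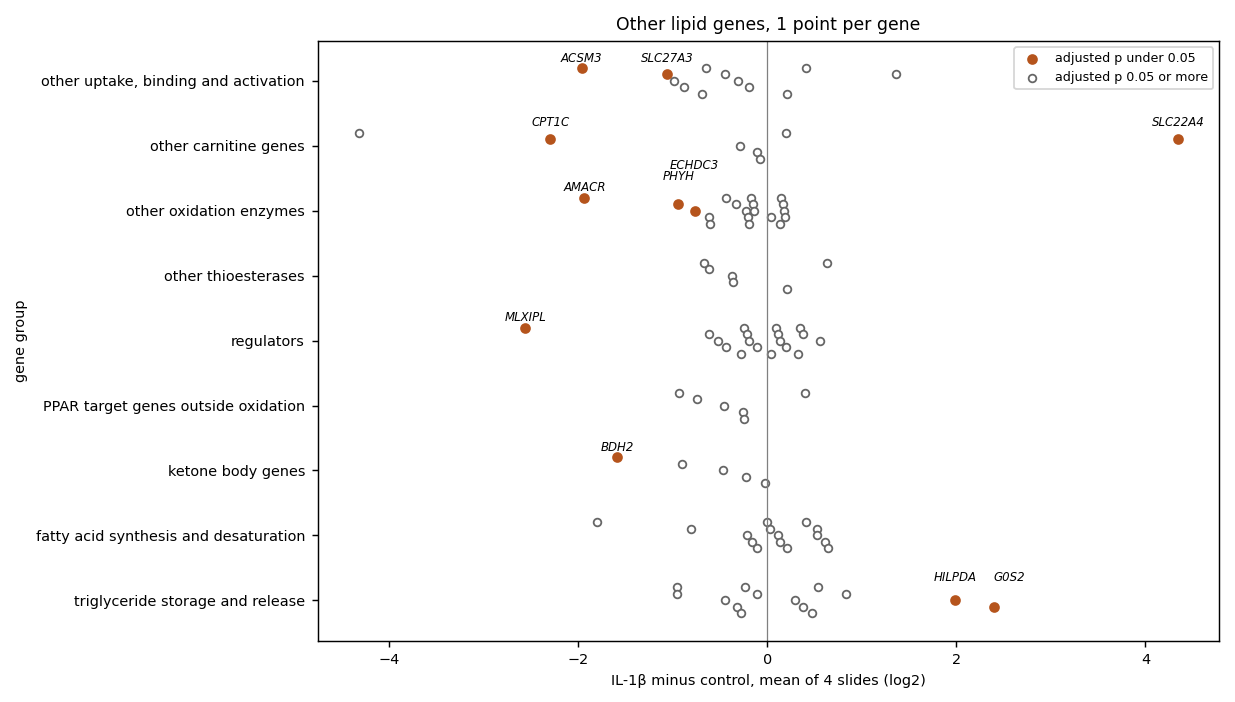
Mean difference with IL-1β over 4 slides, on the log2 scale (x axis), for tested genes of the wider lipid list in 9 groups (y axis), with 1 point per gene. Filled points have an adjusted p under 0.05 and are named. SLC22A4, G0S2 and HILPDA are the 3 filled points above 0, at 4.35, 2.40 and 1.99.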

How the data were processed

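The 12 arrays were grouped by line, ligand and number as their titles give them. The authors scanned the arrays and deposited spot intensity values (background-subtracted by Agilent Feature Extraction 9.5.3.1, hg19 annotation), and a table of log2 values that they describe as normalized, used as an alternative. Here control and outlier spots were left out, spots of a probe were averaged, each signal was divided by its array's 75th percentile (floor 1 signal unit) and log2 was taken, which lets the floor set the dimmest values. The brightest probe per gene was kept among those well above background on at least 2 of the 4 arrays of a treatment. All 12 arrays entered a limma fit (version 3.58.1, R 4.3.3) of 1 effect per treatment, blocked by slide, which left 6 residual degrees of freedom. Each SE comes from a fit of this form, so the spread of the Empa arrays enters the SE of the IL-1β differences, and the reverse. Benjamini-Hochberg adjustment ran over 17239 genes at a threshold of 0.05. Arrays that share a slide deviated together from their group means (r from 0.718 to 0.911), and they were paired in the fit. With 2 arrays per group, that r reflects only how unlike the 2 slides of a label were, and is not a separate test of the pairing. The no-block result is given beside the others. Differences between the labelled lines were fitted with an effect per line, and control levels with 6 groups. The genes named were those past the threshold, then those of one sign on 4 of 4 slides (up to 12 for IL-1β and 6 for Empa), the 6 widest control ranges, SLC27A2, CPT1A and PPARGC1A, and up to 10 called genes of the wider list. PHYH and ECHDC3, and members cited for their role or for a single slide, were picked once their values had been seen. The genes, lists and tests were chosen with earlier results of these data known. Where 1 array of a slide was dim, the fold sets the bright array against the dim array's own signal. The lowest signal well above background there was used if that is higher. Such a fold is not a bound, as the true dim signal may be higher or lower. The fits were tested on simulated data, with independent noise, the same effect on every slide and no floor. That test therefore does not cover effects that differ between slides or dim signals. The number of arrays limits the precision. The values of 1 called gene of the wider list, which is in its counts, and the names of some markers are not reported here.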

Additional observations from a re-analysis of the deposited data

Results flagged for a closer look

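Among 66 sets of 4 slide differences (33 genes, 2 ligands), 5 had 1 slide far from the others by Dixon's criterion for 4 values, where chance gives about 1 in 20. With Empa, HK-2 replicate 1 was the far slide for SLC25A20 (-1.50, others 0.40 to 0.46) and CROT (-1.28, others 0.37 to 0.48). RPTEC/TERT1 replicate 2 was the far slide for ACADSB (-0.11, others 0.60 to 0.70) and SLC27A2 (0.43, others -0.18 to -0.10). With IL-1β, HK-2 replicate 2 was the far slide for FABP3 (1.88, others -2.35 to -1.87), where neither array of that slide was well above background.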

How the results depend on the processing

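The 7 genes called for IL-1β became 1 without the replicate block (SLC27A2), 0 on the slides of either scan day alone (limma called 0 of all genes there, and 8 and 10 of the 33 had an unadjusted p under 0.05), 11 with normexp and quantile normalization and 12 with the authors' table, where 1830 and 1831 of all genes were called (1885 as reported). The last 2 kept 6 of the 7, without CROT, and added CPT2, DECR2, ETFB, HADH and HADHB in both, and ECHS1 in the authors' table. With 1 array or slide left out, the count lay between 3 (without the RPTEC/TERT1 replicate 2 slide) and 12 (without HK-2 Empa replicate 1), while calls over all genes were 364 and 2803, and it was 4 without HK-2 control replicate 1, without RPTEC/TERT1 control replicate 2 or without the HK-2 replicate 2 slide (694, 724 and 643 over all genes). The causes were not tested. Over all settings the genes' median ranged from -0.61 to -0.34 with IL-1β, and from -0.13 to 0.04 with Empa. For Empa and for the differences between lines 0 of the genes were called in every setting tried, and no named gene reversed a call. Without the RPTEC/TERT1 replicate 2 slide the calls lost were ACADS, ACSL5, CROT and EHHADH, and without the HK-2 replicate 2 slide or either of those control arrays ACSL5, CROT and EHHADH. With an effect per labelled line 5 were called, and 659 of all genes (3.82%). Over all genes, 37.0% of the IL-1β calls were higher (698 against 1187), and 48.5% with normexp and quantile normalization (888 against 942), and 4 genes were called without the block. Fold sizes of dim genes were smaller in the authors' table and with normexp (offset of 50 signal units): for SLC27A2 2.52-fold and 2.84-fold lower, against 10.7-fold. Quantile normalization alone gave -3.29 for SLC27A2 (log2). The falls of ACADS and PPARGC1A, well above background on all arrays, were smaller as well. ACADS was 1.45-fold and 1.47-fold lower, against 2.20-fold, and PPARGC1A 1.91-fold and 1.86-fold, against 2.93-fold. Dim signals limit CROT, FABP3, ACADL and CPT1A most.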
